A study of Mus musculus with 6 samples.

Results

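Genes of NAD synthesis and use other than Nampt were followed in cultured mouse group 2 innate lymphoid cells (ILC2s), tissue lymphocytes that secrete type 2 cytokines. The 10 genes, Nmnat1, Nmnat2, Nmnat3, Naprt, Nmrk1, Nadsyn1, Qprt, Nadk, Nadk2 and Nnmt, were chosen by the function of their enzymes, out of 21883 protein-coding genes. For each gene, every peak that overlapped its span or the 2 kb on either side was taken from 6 peak lists. Each list came from 1 library of CUT&Tag, a method in which a transposase tethered to an antibody on chromatin cuts the DNA near the bound protein or mark. No source used here names the protein or mark that the antibody bound, and peaks are described below only as places where it was enriched.

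The cells were sorted ILC2s of the colon, and all 3 groups were grown with the activating cytokines IL-33 and IL-25 and the growth cytokines IL-7 and IL-2. Control had no further agent named, FK866 had the NAMPT inhibitor FK866, and FK866 plus succinate had both the inhibitor and succinate, a metabolite of the tricarboxylic acid cycle. Each group had 2 libraries, and the comparisons ask which chromatin changes accompany NAMPT inhibition and which are altered by succinate. The sources used here give no dose, duration, mouse strain, age or sex, nor do they say whether the 2 libraries of a group came from separate cultures. The p-values therefore measure only the spread between these libraries.

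NAD is the electron carrier of central metabolism and the substrate of sirtuins and poly(ADP-ribose) polymerases. Most cells rebuild it from nicotinamide through NAMPT, which makes nicotinamide mononucleotide, and NMNAT enzymes turn that mononucleotide into NAD. Other routes start from nicotinamide riboside (NMRK1), nicotinic acid (NAPRT) or tryptophan (QPRT). The last of these pass through nicotinic acid adenine dinucleotide, which NADSYN1 amidates to NAD. NAD kinases turn NAD into NADP, and NNMT removes nicotinamide by methylation. The routes from riboside, nicotinic acid and tryptophan do not use the step that FK866 blocks, and all routes use the NMNAT step.

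The promoters of 5 of the genes are shown because they carry the contrasts described below: a strong peak over the start at Nadk and Nadsyn1, a peak that begins at the start of Nmnat3, a start inside no peak at Nmnat2, and a start covered in only some libraries at Qprt. RefSeq promoters (GRCm38.p6, same coordinates as mm10) were matched for 7 of the 10 genes. Each sequence is the 250 bases upstream of the start, 5′ to 3′ on the gene's strand. Capitals mark matches, on either strand, to the GC box (GGGCGG), the E-box (CACGTG), an ETS motif (CCGGAAGT), an NRF1 motif (GCATGCGC) or a GATA motif (AGATAA), and no matches overlap each other.
Nadk, second start, plus strand, chr4:155563565-155563814: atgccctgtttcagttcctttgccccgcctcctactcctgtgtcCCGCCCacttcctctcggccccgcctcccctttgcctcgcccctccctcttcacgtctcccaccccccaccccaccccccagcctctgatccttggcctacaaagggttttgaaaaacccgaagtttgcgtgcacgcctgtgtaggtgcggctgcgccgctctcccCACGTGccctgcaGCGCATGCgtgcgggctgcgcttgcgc
Nadsyn1, minus strand, chr7:143822853-143823102: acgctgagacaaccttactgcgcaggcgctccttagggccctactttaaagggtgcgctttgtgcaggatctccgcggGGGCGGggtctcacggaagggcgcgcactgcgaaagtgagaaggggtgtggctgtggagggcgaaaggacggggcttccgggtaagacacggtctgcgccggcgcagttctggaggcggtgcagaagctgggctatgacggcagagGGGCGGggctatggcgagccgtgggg
Nmnat3, plus strand, chr9:98296320-98296569: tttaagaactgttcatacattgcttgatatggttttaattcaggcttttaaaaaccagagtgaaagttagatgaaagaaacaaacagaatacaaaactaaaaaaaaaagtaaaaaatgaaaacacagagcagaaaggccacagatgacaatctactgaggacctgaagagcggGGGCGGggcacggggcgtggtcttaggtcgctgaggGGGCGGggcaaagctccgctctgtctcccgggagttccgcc
Nmnat2, plus strand, chr1:152954851-152955100: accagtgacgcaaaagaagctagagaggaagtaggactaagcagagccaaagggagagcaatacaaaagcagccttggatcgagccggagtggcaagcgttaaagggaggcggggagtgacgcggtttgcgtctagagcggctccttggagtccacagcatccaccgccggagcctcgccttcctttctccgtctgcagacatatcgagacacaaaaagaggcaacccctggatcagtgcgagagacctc
Qprt, minus strand, chr7:127122030-127122279: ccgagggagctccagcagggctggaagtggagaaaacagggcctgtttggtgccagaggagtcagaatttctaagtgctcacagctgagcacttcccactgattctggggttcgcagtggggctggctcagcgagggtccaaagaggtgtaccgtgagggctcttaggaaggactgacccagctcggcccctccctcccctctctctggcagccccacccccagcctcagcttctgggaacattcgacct

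The promoter of Nadk at its second start held 18 CG dinucleotides and 1 match each to the GC box, the E-box and the NRF1 motif. The Nadsyn1 promoter held 23 CG dinucleotides and 2 GC boxes, and that of Nmnat3 held 9 CG dinucleotides and 2 GC boxes. The promoters of Nmnat2 (15 CG dinucleotides) and Qprt (6) held none of the 5 motifs. Neither did that of Nmrk1 (21 CG dinucleotides), not shown, which was covered whole in all 6 libraries. Among all 32817 RefSeq promoters of this length, 32.7% held a GC box, 6.02% the E-box, 2.88% the ETS motif, 2.25% the NRF1 motif and 9.99% the GATA motif. The median promoter held 6 CG dinucleotides. A match is a description of the letters and not a bound site.

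All 10 genes had a peak in all 6 libraries. That is common: of the 15358 protein-coding genes with a peak in at least 2 libraries, 91.4% had one in all 6. Of all 21883 protein-coding genes, from which the 10 were chosen, 64.1% had a peak in all 6 and 27.2% had none in any library. The strength of a gene was measured as the percentile, within its own library, of the deposited -log10 p of its strongest peak. The mean percentile over the 6 libraries was 97.5 at Nadk, 95.0 at Nmnat1, 92.4 at Nmrk1, 87.2 at Nmnat3, 86.5 at Nadk2, 86.2 at Nadsyn1, 81.7 at Naprt, 71.0 at Qprt, 69.3 at Nnmt and 53.7 at Nmnat2. Neighbours in this order overlapped in their range over libraries in every case but 2, Naprt above Qprt and Nnmt above Nmnat2. The median of the 10 genes was 86.4, beside 85.9 over all genes tested, so as a group these genes were of ordinary strength.

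**Figure D1:**
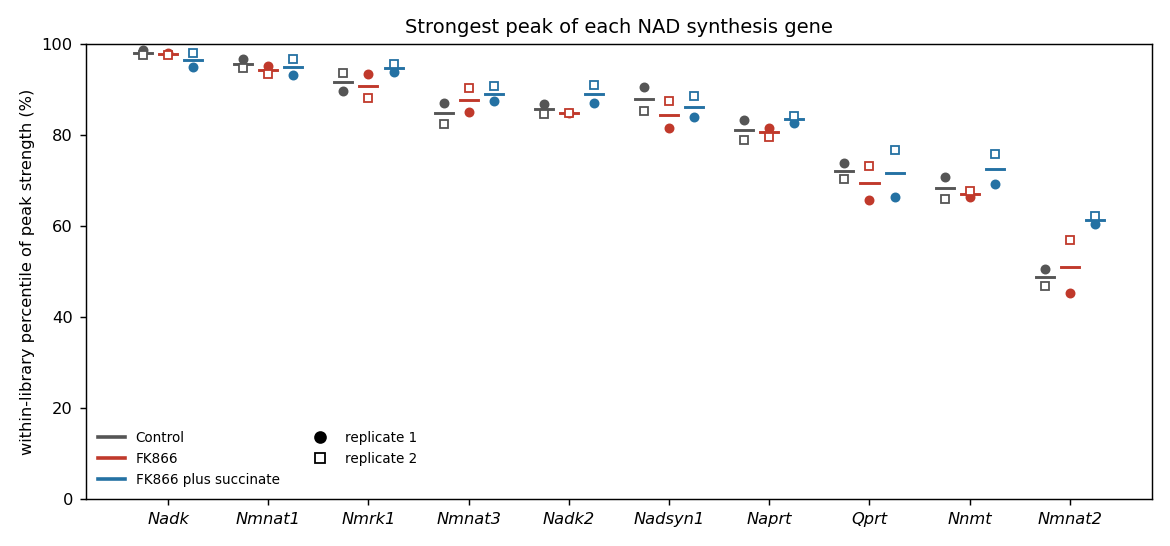
Within-library percentile (y axis, percent) of the strongest peak of each of the 10 genes (x axis, in order of mean). Filled circles are replicate 1, open squares replicate 2, bars the group means. Nadk lies between 95.0 and 98.7 in all libraries and Nmnat2 between 45.3 and 62.3, while the 3 groups lie close together at most genes.

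The length of the span plus 2 kb that peaks covered was the second measure. It gives the width and number of peaks, not the height of their signal. Mean covered length ran from 724 bp at Nmnat2 to 5254 bp at Nadk. Since the spans run from 3.52 kb at Naprt to 164 kb at Nmnat2, levels were compared between genes as a share of the window, which was 16.7% at Naprt, 16.1% at Nadk, 12.9% at both Nmrk1 and Qprt, and 0.429% at Nmnat2. Over the 6 libraries the coefficient of variation of covered length was smallest at Naprt (4.07%) and Nadk (6.37%) and greatest at Nmnat2 (52.7%). Its median over the 10 genes was 17.2%, beside 14.6% over all genes.

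**Figure D2:**
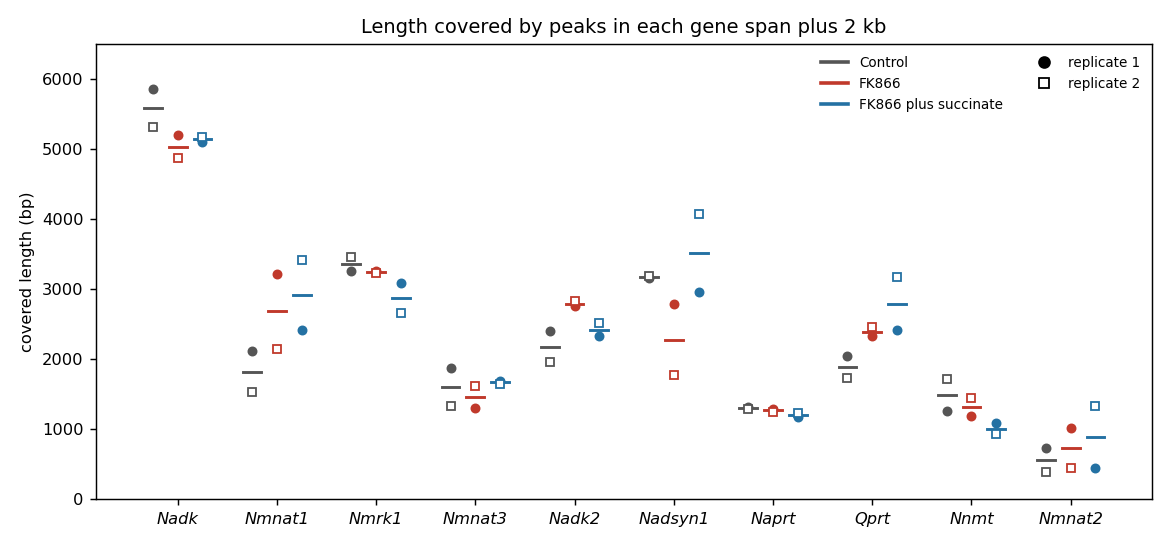
Base pairs covered by peaks (y axis) in the span plus 2 kb of each gene (x axis) in the 6 libraries. Filled circles are replicate 1, open squares replicate 2, bars the group means. Replicates at Naprt and Nmrk1 lie close together, and those at Nmnat1, Nadsyn1 and Nmnat2 lie far apart in at least 1 group.

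Nmnat1 encodes the nuclear NMN adenylyltransferase and lies on the minus strand at chr4:149467569-149485210. Its strongest peak covered both RefSeq starts in every library, at percentiles of 96.7 and 94.7 in Control, 95.3 and 93.3 in FK866, and 93.2 and 96.6 in FK866 plus succinate. The groups overlapped, and the fold enrichment of this peak over background, as deposited, was between 8.83 and 10.1. The peak is shared with the neighbouring gene Lzic, so its strength cannot be given to Nmnat1 alone. Peaks covered 2108 and 1524 bp in Control, 3211 and 2148 bp in FK866, and 2418 and 3417 bp in FK866 plus succinate. Every treated library was above both Control libraries. The start peak covered between 1284 and 1524 bp in each library, and the rest lay in weaker peaks. A region at chr4:149476223-149477611, near the gene Tmem274, had 439 bp covered in Control 1, none in Control 2 and between 694 and 894 bp in the 4 treated libraries.

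Nmnat2 encodes the cytosolic NMN adenylyltransferase best known from neurons and axons. It had the weakest peaks of the 10 genes, and the 250 bases upstream of its start, printed above, were in no peak of any library. Among RefSeq promoters with 15 to 19 CG dinucleotides, 85.9% were covered in all 6 libraries and 8.55% in none. The 1 region of Nmnat2 with a peak in all 6 libraries, chr1:153085002-153085779, lay 130 kb downstream of the start. Its percentile was 50.6 and 46.8 in Control, 45.3 and 56.8 in FK866, and 60.4 and 62.3 in FK866 plus succinate. Both libraries of FK866 plus succinate were above the other 4. Over the 14035 genes tested on the percentile, FK866 plus succinate was higher without overlap at 5877 against FK866 and at 2932 against Control. In lists cut to equal length the percentiles were 38.1 and 45.9 in Control, 45.3 and 53.5 in FK866, and 55.4 and 47.3 in FK866 plus succinate, and FK866 plus succinate overlapped FK866 but not Control. In the full lists the difference from Control was 12.7 points ± 7.19 (SE), with a p of 0.0879 before and 0.983 after adjustment from limma. Covered length was 726 and 386 bp in Control, 1012 and 438 bp in FK866, and 447 and 1332 bp in FK866 plus succinate, so the groups overlapped fully. With peaks of q below 0.05 it was 381 and 386 bp in Control and 320 and 438 bp in FK866. It was then 447 and 599 bp in FK866 plus succinate, above all other libraries.

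Nmnat3, the mitochondrial member of the family, spans chr9:98287433-98420533 on the plus strand. Its strongest peak began at the RefSeq start and ran into the gene, and it covered between 58 and 89 of the 250 bases printed above. That peak, at chr9:98296481-98298006, had fold enrichments between 11.2 and 13.2, higher than the strongest peak of each other member in the same library, except in Control 1 where Nadsyn1 had 11.7. Its percentile was 87.1 and 82.4 in Control, 85.0 and 90.4 in FK866, and 87.4 and 90.8 in FK866 plus succinate. Covered length was 1868 and 1327 bp in Control, 1296 and 1615 bp in FK866, and 1684 and 1648 bp in FK866 plus succinate. On covered length the 2 Control libraries lay further apart than those of either treated group, and Control overlapped both. FK866 plus succinate lay above FK866 without overlap, beside 17.9% of all genes. On the percentile, FK866 plus succinate lay above Control without overlap, a position found at 2932 of 14035 genes tested.

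Nmrk1 encodes nicotinamide riboside kinase, which makes nicotinamide mononucleotide without NAMPT. It lies on the plus strand at chr19:18632016-18652428, and its main peak covered the start. The region of this peak lay within 1 kb of the gene Ostf1, so its strength cannot be given to Nmrk1 alone. The percentile of this peak was 89.8 and 93.7 in Control, 93.3 and 88.2 in FK866, and 93.9 and 95.6 in FK866 plus succinate. A further region inside the gene, chr19:18646311-18647263, also had a peak in all 6 libraries, at percentiles between 60.0 and 74.1. Peaks covered 3261 and 3455 bp in Control, 3256 and 3225 bp in FK866, and 3081 and 2654 bp in FK866 plus succinate. The FK866 plus succinate libraries were the lowest of the 6. With peaks of q below 0.05 the lengths were 2875 and 2650 bp in Control, 3256 and 3095 bp in FK866, and 2780 and 2654 bp in FK866 plus succinate, which then overlapped Control, while FK866 lay above it. In the full lists the difference of FK866 plus succinate from Control was -0.20 ± 0.0926 (SE) in log2(bp + 500), with an adjusted p of 0.621 from limma.

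Naprt encodes the enzyme that starts NAD synthesis from nicotinic acid and has the smallest span, chr15:75890963-75894481. It had exactly 1 peak in each library, at the higher-coordinate end that it shares with Eef1d. Its orientation was not analysed here, as no promoter was matched. Covered length was 1314 and 1290 bp in Control, 1283 and 1245 bp in FK866, and 1175 and 1223 bp in FK866 plus succinate. The 3 groups fell in that order without overlap, over a range of 1.12-fold from highest to lowest. The difference of FK866 plus succinate from Control was -0.09 ± 0.0723 (SE) in log2(bp + 500), with an adjusted p of 0.798 from limma. Percentiles, between 78.9 and 84.2, overlapped between Control and each treated group.

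Qprt makes nicotinic acid mononucleotide from quinolinate, the end of the tryptophan route. It spans chr7:127107770-127122029 on the minus strand. Its strongest peak lay inside the gene, at chr7:127112136-127114133 and at least 7896 bp from the start, with percentiles of 73.8 and 70.2 in Control, 65.6 and 73.1 in FK866, and 66.5 and 76.7 in FK866 plus succinate. Among the regions outside this peak, each present in 1 to 3 libraries, one lay over the start. That region, chr7:127121439-127122235, was covered by no peak in either Control library or in FK866 1, by 529 bp in FK866 2, and by 628 and 418 bp in the FK866 plus succinate libraries. The peaks there had percentiles of 11.5, 53.8 and 57.9, in the same order. Both FK866 plus succinate peaks had a q below 0.05, and that of FK866 2 did not. In FK866 plus succinate 2 none reached the 250 bases printed above.

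Across the whole window of Qprt, peaks covered 2039 and 1733 bp in Control, 2326 and 2454 bp in FK866, and 2407 and 3164 bp in FK866 plus succinate. All treated libraries were above both Control libraries. The group means were 1886 ± 216 bp, 2390 ± 90.5 bp and 2786 ± 535 bp (SD, n = 2). The difference of FK866 plus succinate from Control was 0.45 ± 0.141 (SE) in log2(bp + 500), a ratio of 1.37 (95% interval 1.06 to 1.77), with an adjusted p of 0.490 from limma over all genes (p of 0.0250 before adjustment). With only the peaks whose deposited q was below 0.05, the lengths were 1717 and 1733 bp in Control, 1895 and 1925 bp in FK866, and 2407 bp in each FK866 plus succinate library. The 3 groups then did not overlap, and the adjusted p for FK866 plus succinate against Control was 0.108, the smallest of the 10 genes over the alternatives tried.

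Nadsyn1 encodes the glutamine-dependent NAD synthetase. It lies on the minus strand at chr7:143795589-143822862, and its promoter, printed above, was covered whole in all 6 libraries by a peak shared with the neighbouring gene Dhcr7. Percentiles of that peak were 90.6 and 85.4 in Control, 81.5 and 87.5 in FK866, and 83.9 and 88.5 in FK866 plus succinate. Elsewhere the gene held many weak regions: 13 merged regions, of which 1 was in all 6 libraries and 6 were in 1 library only. Peaks numbered 5 in each Control library, 3 and 2 in FK866, and 5 and 6 in FK866 plus succinate. Covered length was 3159 and 3181 bp in Control, 2778 and 1775 bp in FK866, and 2959 and 4064 bp in FK866 plus succinate.

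Both FK866 libraries were thus below all others at Nadsyn1. The difference of FK866 from Control was -0.43 ± 0.224 (SE) in log2(bp + 500), and that of FK866 plus succinate from FK866 was 0.54 ± 0.224 (SE), with adjusted p-values of 1 and 0.586 from limma. The order rested on weak peaks. With lists cut to the 40320 strongest peaks each, the length of the shortest list, Nadsyn1 had 2264 and 2796 bp in Control, 2778 and 1775 bp in FK866, and 2702 and 2831 bp in FK866 plus succinate, and FK866 overlapped Control. With peaks of q below 0.05 only the promoter peak was left, between 1443 and 1698 bp in all libraries.

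Nadk, the cytosolic NAD kinase, was the strongest of the 10 genes and ranked above 92.6% of all genes tested by percentile. It spans chr4:155562381-155591001 on the plus strand with 2 RefSeq starts. The main peak, chr4:155562501-155564990, had its summit between 1.52 and 1.61 kb downstream of the first start, close to the second, whose upstream 250 bases were covered whole in all 6 libraries. The 250 bases upstream of the first start held 4 CG dinucleotides and were covered in none. Percentiles of the peak were 98.7 and 97.5 in Control, 98.1 and 97.6 in FK866, and 95.0 and 98.0 in FK866 plus succinate. Only FK866 plus succinate 1 stood lower, and the groups overlapped.

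A region inside Nadk at chr4:155571169-155572327 was also covered in all 6 libraries, at percentiles between 65.1 and 74.8. Covered length over the gene was 5863 and 5321 bp in Control, 5201 and 4864 bp in FK866, and 5102 and 5174 bp in FK866 plus succinate. Each treated library was below both Control libraries. With peaks of q below 0.05 the lengths were 3326 and 3181 bp in Control, 3728 and 2904 bp in FK866, and 3686 and 4631 bp in FK866 plus succinate, so that FK866 overlapped Control and FK866 plus succinate lay above it. In the full lists the differences from Control were -0.14 ± 0.0863 (SE) for FK866 and -0.11 ± 0.0863 (SE) for FK866 plus succinate in log2(bp + 500), with adjusted p-values of 1 and 0.786 from limma.

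**Figure D3:**
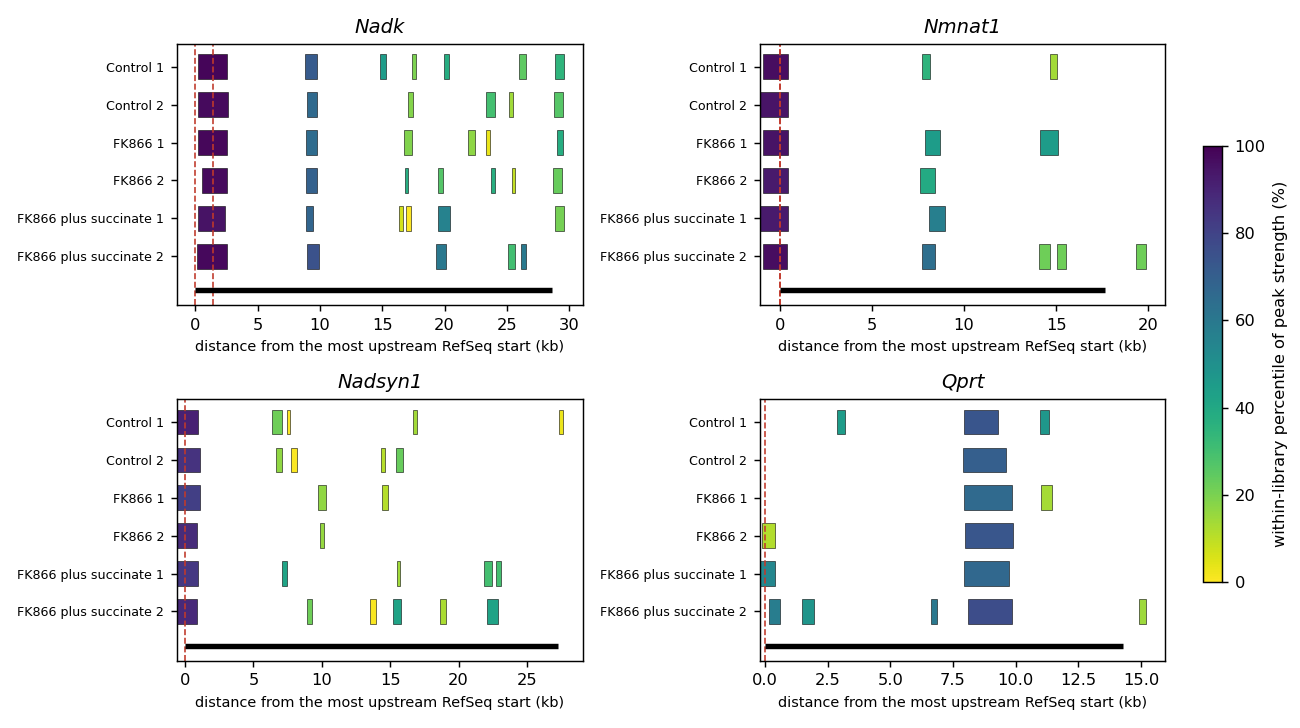
Peaks (boxes) of the 6 libraries (rows) along Nadk, Nmnat1, Nadsyn1 and Qprt, by distance from the most upstream RefSeq start in kb, read in the direction of transcription. Colour gives the within-library percentile of the peak, dashed lines the RefSeq starts and the black bar the gene span. The main peak recurs at the same place in every library, while the weaker peaks, in lighter colours, include some that recur in 5 libraries and others found in 1.

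Nadk2, the mitochondrial NAD kinase, spans chr15:9071260-9110496. Its main peak at the lower-coordinate end kept nearly the same width, between 1936 and 2032 bp, in all 6 libraries. Its percentile was 86.9 and 84.5 in Control, 84.8 in each FK866 library, and 87.1 and 91.1 in FK866 plus succinate. Covered length was 2402 and 1951 bp in Control, 2753 and 2828 bp in FK866, and 2325 and 2516 bp in FK866 plus succinate. Both FK866 libraries were above the other 4. A region at chr15:9078854-9079287 had a peak of 414 and 434 bp in the FK866 libraries and none in the others, and a region at chr15:9085064-9085794 had one in every library but Control 2. The difference of FK866 from Control was 0.30 ± 0.107 (SE) in log2(bp + 500), a ratio of 1.23 (95% interval 1.02 to 1.50), with an adjusted p of 0.907 from limma (p of 0.0390 before adjustment).

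Nnmt encodes nicotinamide N-methyltransferase, which draws nicotinamide out of the salvage cycle. It spans chr9:48538002-48607655 and had a peak in all 6 libraries at its lower-coordinate end, with percentiles of 70.9 and 65.8 in Control, 66.4 and 67.7 in FK866, and 69.3 and 75.7 in FK866 plus succinate. Covered length was 1253 and 1716 bp in Control, 1188 and 1446 bp in FK866, and 1081 and 925 bp in FK866 plus succinate. The FK866 plus succinate libraries were the lowest of the 6. Their difference from Control was -0.39 ± 0.154 (SE) in log2(bp + 500), a ratio of 0.762 (95% interval 0.577 to 1.01), with an adjusted p of 0.566 from limma. The region at chr9:48536363-48536843, in both Control libraries and in FK866 2, had no peak in FK866 1 or in either FK866 plus succinate library.

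Between FK866 and Control none of the 10 genes differed past the threshold. On covered length, limma called 0 of the 10, and 0 of 15358 genes tested (0%), at an adjusted p of 0.05. Before adjustment, Nadk2 was below 0.05, 1 of 10, beside 5.29% of all genes. Both FK866 libraries were above both Control libraries at 3 of the genes, Nmnat1, Qprt and Nadk2, beside 12.8% of all genes, and below them at 4, Naprt, Nmrk1, Nadsyn1 and Nadk, beside 19.9% of all genes. With peaks of q below 0.05, Nmnat1, Qprt, Nadk2 and Naprt kept these positions, Nmrk1 turned to higher in FK866, and Nadsyn1 and Nadk overlapped. The share of all genes with such positions under this q filter was not computed in any comparison, so these lists have no background beside them. The median difference was -0.04 over the 10 genes and -0.02 over all genes, in log2(bp + 500). On the percentile of the strongest peak, 0 of the 10 passed, beside 0.00713% of 14035 genes, which is 1 gene, Pgk1. None of the 10 had an unadjusted p below 0.05 there, beside 3% of all genes.

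Adding succinate to FK866 gave no call among the 10 genes either. Covered length had 0 calls among the 10 and 0% of all genes in FK866 plus succinate against FK866. None of the 10 had an unadjusted p below 0.05, beside 8.87% of all genes. Nmnat3 and Nadsyn1 were higher without overlap, beside 17.9% of all genes, and Naprt, Nmrk1, Nadk2 and Nnmt lower, beside 21.8%. With q below 0.05, Naprt, Nmrk1 and Nnmt stayed lower, Nmnat3, Nadsyn1 and Nadk2 overlapped, and Nmnat2 and Qprt were higher. The medians were 0.07 for the 10 genes and -0.01 for all genes. The percentile fit called 0 of the 10 and 0.057% of all genes, and before adjustment 0 of the 10 and 9.11% of all genes.

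In FK866 plus succinate against Control, which shares its libraries with the other comparisons, covered length again gave 0 calls among the 10 and 0% of all genes. Qprt was the 1 gene with an unadjusted p below 0.05, beside 8.97% of all genes. Nmnat1 and Qprt were higher without overlap, beside 13.4% of all genes, and Naprt, Nmrk1, Nadk and Nnmt lower, beside 24.5%. With q below 0.05, Nmnat1 and Qprt stayed higher and Naprt lower, Nmrk1 and Nnmt overlapped, and Nadk turned to higher. Nmnat2 and Nadk2 were then also higher without overlap, and Nadsyn1 lower. The median was 0.09 for the 10 genes and -0.03 for all genes. The percentile fit called 0 of the 10 and 0.0499% of all genes, and before adjustment 0 of the 10 and 4.93% of all genes. With 2 libraries against 2, an exact two-sided permutation test of a single gene cannot give a p below 0.333.

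**Figure D4:**
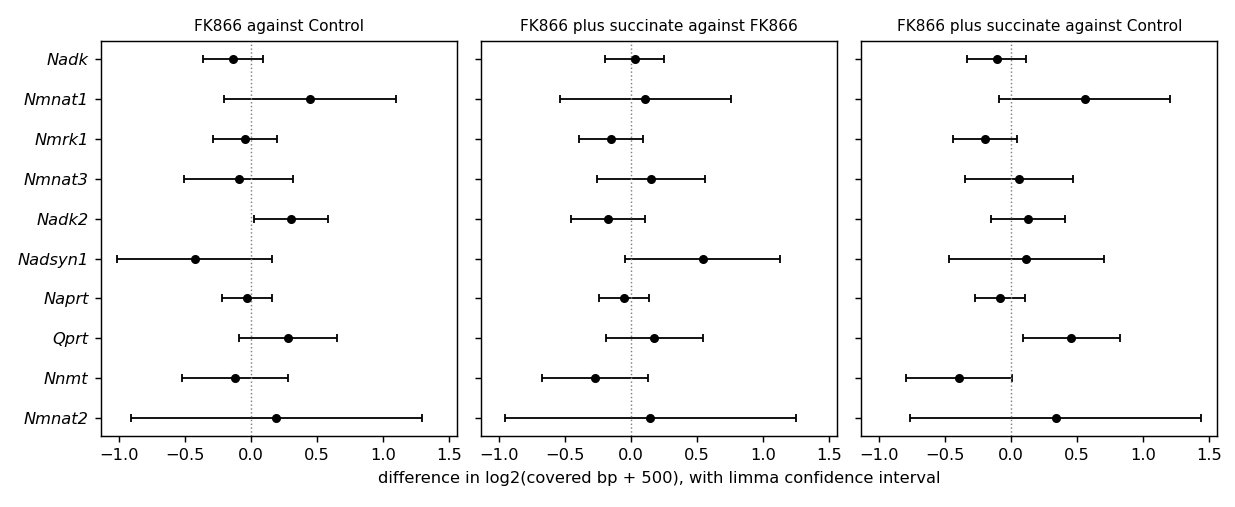
Difference in log2(covered bp + 500) for each gene (points) with its 95% interval from limma (bars), in the 3 comparisons. All intervals cross 0 except those of Nadk2 in FK866 against Control and Qprt in FK866 plus succinate against Control, and neither passes after adjustment.

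The intervals show what these libraries could and could not resolve. They are ratios of covered bp + 500, which understate changes in covered length itself. For Naprt the ratio of FK866 to Control was 0.979 (95% interval 0.859 to 1.12), and for Nmrk1 it was 0.970 (0.820 to 1.15), so larger changes on that scale lie outside the interval. For Nmnat1 it was 1.36 (0.870 to 2.14), so a wide rise lies inside the interval and a fall below its lower limit outside. For Nmnat2 it was 1.14 (0.532 to 2.45), so wide changes in either direction lie inside the interval. Percentiles rank peaks within lists of different lengths and by themselves show no change. Over all genes their median difference was 2.34 points for FK866 plus succinate against FK866 and -0.07 with lists cut to equal length, and over the 10 genes it was 2.54 and -0.41.

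Merging the peaks of the 6 lists gave 53 regions in the windows of the 10 genes. Of these, 12 (22.6%) had a peak in all 6 libraries, beside 24.7% of the 72725 regions in the windows of all protein-coding genes. The 12 were the main peak of every gene and a second region in Nmrk1 and in Nadk. In 1 library only were 19 regions (35.8%), beside 47.2% of all regions. FK866 plus succinate 2, the library with the most peaks, held 9 of the 19, and it held 32.4% of such regions over all genes. None of the 19 had a percentile above 59.8, while the median over the 12 was 84.0.

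Regions present in both libraries of 1 group and in no other library were 1.89%, 3.77% and 1.89% of the 53 for Control, FK866 and FK866 plus succinate. Each share was above that over all regions, given below, but rests on 1 or 2 regions. Control had 1, in Nadsyn1 at chr7:143815762-143816524 with 763 and 409 bp covered, and 0.844% of all regions had that pattern. FK866 had 2, the region of Nadk2 given above and one in Nadsyn1 at chr7:143812513-143813148, with 636 and 303 bp covered, beside 0.617% of all regions. FK866 plus succinate had 1, in Nadsyn1 at chr7:143799768-143800969 with 884 and 801 bp covered, beside 1.43% of all regions. Percentiles of the 4 lay between 15.7 and 53.5. The Nadk2 region had a peak of q below 0.05 in both FK866 libraries. The Nadsyn1 regions were weaker, and none of their peaks had a q below 0.05. No region was absent from both libraries of 1 group and present in the other 4, and the share of all regions with that pattern was not computed.

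The rest of NAD metabolism was followed with a list of 16 further genes, on the tryptophan route, in salvage and in the use of the products. Tdo2, Kynu and Acmsd, 3 enzymes of tryptophan breakdown, had no peak in any library. The strongest were Pnp, which cleaves nicotinamide riboside and other nucleosides, with percentiles between 96.1 and 99.4, Nnt, the mitochondrial transhydrogenase that links NADH and NADP, between 92.3 and 97.9, and Nt5e, the ecto-nucleotidase CD73, between 92.0 and 97.7. On covered length 13 of the 16 could be tested and limma called none in any comparison. Before adjustment, 1 was below 0.05 in FK866 against Control (Haao, lower), beside 5.29% of all genes. In FK866 plus succinate against FK866 there were 2 (Ido2 and Afmid, lower), beside 8.87%. In FK866 plus succinate against Control there were 2 (Haao, lower, and Nudt12, higher), beside 8.97%. Their median differences were 0.01, 0.03 and -0.05, beside -0.02, -0.01 and -0.03 over all genes. On the percentile 12 could be tested and none was called. Before adjustment 0, 2 (Nampt and Nt5e) and 3 (Nampt, Slc25a51 and Nnt) of them were below 0.05 in the same order of comparisons, all higher in FK866 plus succinate, beside 3%, 9.11% and 4.93% of all genes. The genes named from an unadjusted p were chosen after their values were seen.

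Nampt itself, the target of FK866, had a peak in all 6 libraries, at percentiles of 87.6 and 88.8 in Control, 88.8 and 86.4 in FK866, and 93.7 and 94.5 in FK866 plus succinate. With lists of equal length the values were 84.5 and 88.7, 88.8 and 85.3, and 92.9 and 92.3.

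Of the 10 genes, Qprt had the smallest p over the 3 groups in limma's F-test on covered length (0.0617 before adjustment). The genes whose covered length followed that of Qprt most closely over the 6 libraries were Arid2, with a Pearson correlation of 0.99, Plekhm2 (0.986) and Rtn4 (0.985). These were the closest of all genes tested, and the 6 points share the libraries' number of peaks. Each had its highest value in FK866 plus succinate 2 and its lowest in Control 2, as Qprt did.

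The lists held between 40320 and 56361 peaks and covered between 39.0 and 43.8 Mb. The median peak was 528 bp wide in FK866 plus succinate 2 and between 616 and 737 bp in the others. Read depth was not used here, so its part in covered length was not tested. All 12 genes of a list of ILC2 markers, among them Gata3, Rora and Il1rl1, had peaks in all 6 libraries, and the length they covered in sum was between 87039 and 91710 bp in Control, 82436 and 87795 bp in FK866, and 84833 and 84944 bp in FK866 plus succinate. For the other lists the sums in Control, FK866 and FK866 plus succinate ran from 5797 to 6506, 5835 to 7930 and 5712 to 7787 bp for T cells, and from 4839 to 7108, 4205 to 4402 and 4427 to 4445 bp for B cells, where both treated groups lay below Control. They ran from 4967 to 5626, 4739 to 5117 and 4401 to 5120 bp for ILC1 and NK cells, and from 464 to 1623, 833 to 892 and 650 to 1647 bp for ILC3. For myeloid cells they ran from 537 to 618, 0 to 525 and 765 to 1111 bp, without overlap, and for epithelial cells from 3327 to 6220, 3326 to 4466 and 3820 to 3939 bp. The part of other cells in the results above was not tested. Of the lists for other cells, peaks in all 6 libraries were found at 3 of 5 T cell genes, 3 of 4 B cell genes, 2 of 3 genes of ILC1 and NK cells, 1 of 3 of ILC3, 0 of 4 myeloid genes and 3 of 4 epithelial genes. Cd8a, Ms4a1, Ncr1, Il17a, Adgre1 and Krt20 had no peak in any library. A peak shows enrichment of the target and not expression, and in such bulk libraries a changed mix of cells and a change within cells cannot be told apart.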

How the data were processed

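CUT&Tag was measured in 6 libraries, 2 in each of 3 groups taken from the labels. The submitters' processing notes name cutadapt 1.9, Bowtie2 2.5.0 and the build mm10. The authors deposited 1 peak list per library, in the narrowPeak layout with 10 columns. No source used here names the peak caller. The deposited score was 10 times the -log10 p, with decimals dropped, for at least 99.88% of peaks in every library. Deposited fold enrichment is a ratio of signal to background within 1 library, and the deposited -log10 p and -log10 q also belong to 1 library. The lowest deposited -log10 p was 1.30, a loose threshold, so the lists hold many weak peaks. Because -log10 p depends on depth, which is not known here as counts, it was used only as a percentile within its list, and no counting interval could be given.

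Peaks on 21 chromosomes were kept, and 43 to 55 peaks on other sequences were dropped from each list. Gene spans came from RefSeq (GRCm38.p6). Peaks overlapping a span plus 2 kb by at least 1 bp were counted, and peaks of the 6 lists were merged into regions. The minimum overlap of 1 bp was also the setting used with bedtools 2.31.1. Covered length was tested as log2(bp + 500) in genes with a peak in at least 2 libraries, and the percentile of the strongest peak in genes with a peak in all 6. Both used limma 3.58.1 (eBayes with trend) in R 4.3.3 on all 6 libraries with no covariates, and p-values were adjusted by Benjamini-Hochberg over all genes at 0.05. A fold on the log2(bp + 500) scale understates changes of short lengths. The scripts were tested on simulated data. Tables and plots used Python 3.11.15, pandas 2.3.3, numpy 2.4.6 and matplotlib 3.10.9.

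All 10 genes were named. Of 16 further NAD genes, those called, those with no peak and the 3 strongest were to be named, and for the gene with the smallest F-test p the 3 genes of closest covered length. The members and lists were chosen with earlier results of these data known. Alternatives changed the filter, pseudocount, scale, normalization between libraries, peak threshold, flank, overlap, window, variance model, replicate block and the libraries used.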

Additional observations from a re-analysis of the deposited data

How the results depend on the processing

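Under 22 alternatives for covered length and 15 for the percentile, 1107 values of the 10 genes were recomputed. None passed the adjusted threshold, the smallest adjusted p was 0.108 (Qprt), and 1001 kept the sign of the reported difference while 106 took the other sign. Counts of genes called over all genes are given in the order FK866 against Control, FK866 plus succinate against FK866, and FK866 plus succinate against Control. For covered length the counts were 0, 0 and 0. They became 11, 11 and 24 with the percent of the span covered, 0, 1 and 1 with peaks of q below 0.05, and 0, 1 and 1 with the higher-scoring 50% of each list. For the percentile the counts were 1, 8 and 7. They became 2, 4 and 7 with quantile normalization, 2, 8 and 16 with q below 0.05, 2, 6 and 8 with lists of equal length, 2, 9 and 10 with the higher-scoring 50%, 2, 5 and 2 with no flank, 1, 1 and 3 with a flank of 5 kb, 1, 0 and 1 with the summit required in the window, and 0, 1 and 0 with eBayes without trend. Leaving out each library in turn gave 0 to 0 calls for covered length in each comparison, and 2 to 8, 16 to 45 and 6 to 64 for the percentile. The cause of these changes was not tested.

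On covered length, replicate numbers showed no sign of pairing. Deviations of same-numbered libraries correlated at -0.0089 between Control and FK866 and -0.13 between Control and FK866 plus succinate. Between FK866 and FK866 plus succinate the correlation was 0.017. The percentile was not checked in this way. With a replicate block, covered length gave 0, 0 and 0 calls and the percentile 5, 17 and 13. Read depth was not known, and its part in which weak peaks were called, such as those inside Nadsyn1 and Nmnat1, was not tested.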
